A study of Mus musculus with 2 samples.

Results

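The genes Fcrls, Cbr2, Folr2, Mrc1, Gas6, Hpgds, Npl, C1qa, C1qb and C1qc were followed across the cells of a mouse melanoma. These 10 genes, of 14654 genes in the deposited table of raw counts, were chosen from measured values of these same libraries, in which they had stood out as resident macrophage genes with lower levels in Siah2-/- hosts. The differences between the hosts given below are therefore descriptions, and none was tested. Tumors of YUMMER1.7, an immunogenic BRAF-mutant mouse melanoma line, grew under the skin for 11 days in male C57BL/6 mice aged 8 weeks. The hosts were wild type (WT) or lacked Siah2, a RING finger ubiquitin ligase, in all their cells (Siah2-/-). Live CD45+ leukocytes were sorted, a smaller part of sorted CD45- cells was mixed back in, and 1 droplet library of 3′ ends of transcripts (10x Genomics, v2 chemistry) was made per genotype. Effects of the genotype, the pool of tumors, the suspension and the library cannot be told apart. All intervals given are 95% intervals that cover counting error only, and no value has a replicate.

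Macrophages of a tissue come from cells that seeded it early and renew in place, or from blood monocytes that enter and differentiate, and in a growing tumor both are mixed. Cells of the first kind are known for scavenger and lectin receptors, for factors that help them bind and clear dying cells, and for a strong output of complement C1q. The 10 genes sample these roles. Mrc1 encodes the mannose receptor CD206, a lectin that takes up glycoproteins. Folr2 encodes folate receptor beta, which is anchored in the membrane and binds folate. Fcrls encodes a scavenger receptor that resembles Fc receptors and is best known as a microglia gene. Gas6 encodes a secreted bridge between phosphatidylserine on dying cells and the receptor kinases Tyro3, Axl and Mertk. Hpgds encodes haematopoietic prostaglandin D synthase, which makes prostaglandin D2, Cbr2 encodes a carbonyl reductase, and Npl encodes the lyase that splits sialic acid. C1qa, C1qb and C1qc encode the A, B and C chains of C1q, which starts the classical complement pathway.

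All are protein-coding genes of the mouse genome build GRCm38. The C1q genes lie side by side on the minus strand of chromosome 4, within 18675 bases from 136880129 to 136898803. The others lie apart, Fcrls on chromosome 3 (87250758 to 87263738), Cbr2 on chromosome 11 (120729489 to 120732114), Folr2 on chromosome 7 (101839988 to 101857194), Gas6 on chromosome 8 (13465374 to 13494490), Hpgds on chromosome 6 (65117293 to 65144908) and Npl on chromosome 1 (153503015 to 153550045), all on the minus strand. Mrc1 is on the plus strand of chromosome 2, from 14229392 to 14332057. The 10 genes thus lie on 8 chromosomes.

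Since the levels of several of these genes followed each other across states, the sequence before their starts was read for letters they share. RefSeq promoter sequences (GRCm38.p6) were at hand for 9 of the 10 genes. The letters AGGAAG are the core that PU.1 and other ETS factors of myeloid cells can bind. They were searched on both strands of the 250 bases before the start and were found in 7 of the 9 genes. Of the 32851 promoters searched, 29.5% held them. The letters TGCTGA, a core of MAF sites, were found in 3 of the 9, against 16.1% of the promoters searched. Both motifs were picked with the sequences in view, so the shares are descriptions. The 30 bases around the last match before the start that has 12 bases on either side within the window are shown for the 7 genes, 5′ to 3′ on the strand of the gene, with the match in capitals (CTTCCT is AGGAAG on the opposite strand).
Fcrls (chr3:87263581-87263610, minus strand): acaactttgccaCTTCCTttttttcctatt
Cbr2 (chr11:120732082-120732111, minus strand): agctacccttggAGGAAGcgggtcatgcca
Folr2 (chr7:101857255-101857284, minus strand): tggccttgttgaAGGAAGtgtgtgctcccg
Mrc1 (chr2:14229366-14229395, plus strand): taaaagggacagCTTCCTctgtcctccttt
Hpgds (chr6:65144761-65144790, minus strand): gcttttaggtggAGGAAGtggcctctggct
C1qb (chr4:136886235-136886264, minus strand): caggacctgaaaCTTCCTgagggcagcagg
C1qc (chr4:136893054-136893083, minus strand): tagggccagggaAGGAAGgggtgggtagag
By the GENCODE annotation the matches of Fcrls, Cbr2 and Hpgds lie in exons of those genes. Those of Mrc1 and C1qc lie outside, with 4 and 12 bases of the stretch inside an exon, and the stretches of Folr2 and C1qb lie in none. Gas6 and Npl held neither motif in these windows. The Npl window (chr1:153549665-153549964, minus strand) lies inside the annotated gene, so it does not cover the bases before the gene start given above.

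The cells analysed were 4512 in the WT library and 5563 in the Siah2-/- library, with a median of 11434.5 and 8699 unique molecular identifiers (UMIs, each standing for 1 captured transcript) per cell and a lowest count of 6670 and 4896. The libraries shared 34 barcodes. Siah2 transcripts were counted in both, with 660 UMIs in WT cells and 505 in Siah2-/- cells. No source used here says which part of the gene is deleted, so that these 3′ counts do not check the labels. Levels are given as CPM, the UMIs of a gene per 1000000 UMIs of the summed cells. A cell was called a macrophage when it held at least 4 of the 6 markers Csf1r, Adgre1, Fcgr1, Cd68, Cd14 and Lyz2, which gave 1966 WT and 2287 Siah2-/- macrophages, or 43.6% and 41.1% of cells. Barcodes that also held the markers of T or NK cells, or of fibroblasts, were set apart as mixed, 518 in WT and 589 in Siah2-/-.

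Macrophages and the mixed barcodes held most UMIs of all 10 genes. At least 1 UMI of C1qb was found in 93.6% of WT and 82.3% of Siah2-/- macrophages (43.3% and 48.5% of T cells), of Hpgds in 48.2% and 17.6% (2.76% and 2.01%), and of Cbr2 in 11.2% and 1.49% (0.690% and 0.277%). In the WT library, macrophages held between 67.7% (Folr2) and 79.3% (C1qb) of the UMIs of each gene, and mixed barcodes held most of the rest, from 18.0% (Hpgds) to 30.4% (Folr2). In the Siah2-/- library the share in macrophages ranged from 49.5% (Cbr2) to 73.7% (C1qb). T cells set the level that free RNA gives in cells that should lack these genes. There the 7 genes other than C1q had at most 2.85 CPM in WT (Hpgds) and 2.47 CPM in Siah2-/- (Hpgds), while C1qb had 73.4 CPM and 86.8 CPM. A level of C1q under about these values is background here.

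Inside the macrophages, most UMIs of several of the genes came from few cells. Ordered from the highest count down, the cells needed to reach 50% of the UMIs of Cbr2 numbered 38 in WT, those for Npl 45, for Folr2 59, for Gas6 67 and for Fcrls 84. It took 155 cells for Mrc1 and 235 for Hpgds, and 456 to 523 for the C1q genes. In the Siah2-/- macrophages it took 7 cells for Cbr2, 14 for Folr2, 15 for Gas6, 17 for Fcrls and 27 for Npl, but 159 for Mrc1 and 103 for Hpgds. The total of a gene bounds these numbers. It was 55 UMIs for Cbr2, 180 for Folr2, 113 for Gas6, 166 for Fcrls and 93 for Npl, against 1434 for Mrc1 and 718 for Hpgds. By the numbers of cells in WT the genes are described below as a restricted group (Fcrls, Cbr2, Folr2, Gas6, Npl), an intermediate pair (Mrc1, Hpgds) and the broad C1q genes.

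To place the genes, macrophages were sorted into states by their leading marker score. None of the 10 genes is a marker. The resident-like state rests on Ccl8, Pf4, Lyve1, Cd163, F13a1, Stab1, Sepp1 and Ltc4s, and Folr2, Fcrls, Gas6, Cbr2 and Npl were among its 10 leading genes. The other states described rest on Mgl2 and MHC class II genes (Mgl2 state), on interferon-induced genes, on monocyte genes such as Ly6c2 and Chil3, and on genes of mitosis (cycling). Cells near the cut, whose 2 leading scores differed by under 0.1, made up 11.6% of WT and 12.7% of Siah2-/- macrophages. In the resident-like state they were 25 of 284 WT and 20 of 95 Siah2-/- cells, a larger part of the latter. The states are ranges of scores and not separate cell types.

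Most of the 10 genes were highest in resident-like cells, and all of them were in WT. The rank order there was resident-like first and cycling second for each gene, with intervals that did not overlap. Fcrls, for example, had 669 CPM (643 to 697) in WT resident-like cells, 273 CPM in cycling cells, 77.8 CPM in interferon cells, 17.2 CPM in Mgl2 cells and 7.51 CPM in monocyte-like cells. Against the Mgl2 state, the largest in WT, the WT resident-like level was 160-fold higher for Folr2 (15 UMIs or fewer stood behind the Mgl2 value in each library), 56.6-fold for Cbr2, 39.0-fold for Fcrls, 28.8-fold for Gas6 and 23.1-fold for Npl. The fold was 6.25 for Mrc1 and 3.15 for Hpgds. It was 1.35 to 1.75 for the C1q genes. C1q lay above its T cell level in every state described. Since the genes were chosen from these libraries as resident macrophage genes, their order over the states describes that choice and gives no support to the name of the state.

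In the Siah2-/- library, resident-like cells were first for 9 genes, the exception being C1qc, at 4271 CPM in both the resident-like and the cycling state. The intervals of the first and second state overlapped for C1qb, C1qc and Hpgds. The fold over the Mgl2 state was lower than in WT for each of the 10 genes, with 22.8 for Folr2, 21.6 for Cbr2, 18.4 for Gas6, 13.8 for Fcrls and 7.02 for Npl. For Cbr2, Gas6, Hpgds and C1qb the intervals of this fold overlapped between the libraries. Over other states the fold was not lower throughout. C1qa was 9.92-fold over the monocyte-like state in Siah2-/- and 4.43-fold in WT, with intervals that did not overlap. Folr2 was 20.8-fold and 10.8-fold over the interferon state and Cbr2 6.76-fold and 4.25-fold over the cycling state, but their intervals overlapped. The Siah2-/- levels in those 2 states rest on 10 UMIs of Folr2 and 6 of Cbr2. For Cbr2, 1 cell held 56.0% of the 25 Siah2-/- UMIs in resident-like cells. In the plot of levels by state, the points of nearly every panel are highest in the resident-like state and lowest in T or NK cells. Levels rise again in between for several genes. Fcrls in WT, for example, had 7.51 CPM in monocyte-like cells and 19.9 CPM in conventional dendritic cells.

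**Figure D1:**
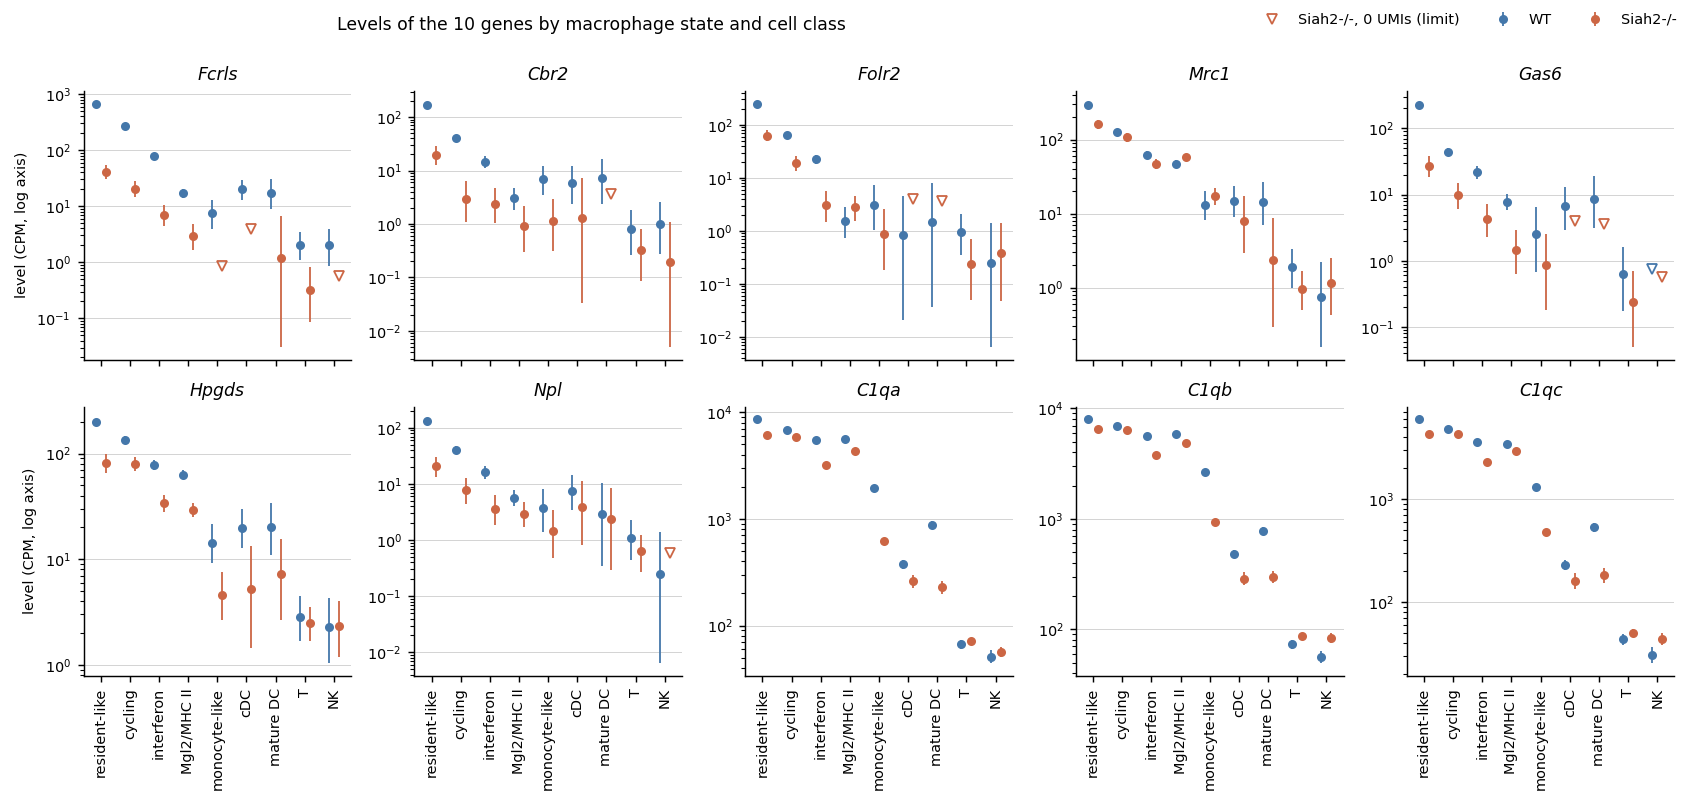
Level of each gene (CPM, log axis, a separate scale per panel) in 5 macrophage states, 2 dendritic cell classes, T cells and NK cells of the WT (blue) and Siah2-/- (orange) libraries. Bars are 95% Poisson intervals, and open triangles mark 0 UMIs, drawn at the level that 3 UMIs would give. Levels lie high in the resident-like state and low in the lymphocytes, with some rises in between. The 2 libraries differ by 16.5-fold for Fcrls and 1.23-fold for C1qb in the resident-like state.

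Dendritic cells (DC) held little of these genes. In conventional DC (86 WT and 66 Siah2-/- cells), Fcrls had 24 UMIs in WT and none in Siah2-/-, but 1 WT cell held 54.2% of the 24. Hpgds had 24 and 4 UMIs, Mrc1 had 18 and 6, and Folr2 had 1 and 0. C1qb had 477 CPM (439 to 518) in WT and 286 CPM (250 to 327) in Siah2-/- conventional DC, above its level in T cells and far below its macrophage level. Mature DC (55 and 81 cells) carried C1qb at 783 and 298 CPM. Single cells weighed on these values, since 1 Siah2-/- cell held 42.7% of the C1qb UMIs in conventional and 45.0% in mature DC. Fibroblasts, NK cells and T cells gave no gene of the restricted group over 3 CPM.

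Over all macrophages, every one of the 10 genes was lower in the Siah2-/- library. Fcrls had 178 CPM (172 to 183) in WT and 7.18 CPM (6.13 to 8.36) in Siah2-/-, a log2 ratio of -4.63 (-4.86 to -4.40). Its ratio was the lowest of the 10721 genes with at least 50 UMIs in macrophages. For Cbr2 the levels were 38.1 CPM (35.6 to 40.8) and 2.38 CPM (1.79 to 3.10), which is -4.00 on the log2 scale. For Gas6 they were 50.9 CPM (47.9 to 53.9) and 4.89 CPM (4.03 to 5.88), or -3.38. The carbonyl reductase and the ligand of the TAM receptors each lay more than 10-fold lower. The Npl levels were 33.2 CPM (30.8 to 35.7) and 4.02 CPM (3.25 to 4.93), or -3.04. Those of Folr2 were 54.7 CPM (51.6 to 57.8) and 7.79 CPM (6.69 to 9.01), or -2.81. These 5 genes make up the restricted group, and their intervals lie far apart.

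The differences were smaller in the other 5 genes. Hpgds had 101 CPM (96.6 to 105) in WT and 31.1 CPM (28.8 to 33.4) in Siah2-/-, a log2 ratio of -1.70. Mrc1 had 101 CPM (96.6 to 105) and 62.0 CPM (58.9 to 65.4), a log2 ratio of -0.70. C1qa had 6080 CPM (6048 to 6113) and 3589 CPM (3565 to 3614), or -0.76 on the log2 scale. For C1qc the levels were 4049 and 2539 CPM and for C1qb 6190 and 4114 CPM, with log2 ratios of -0.67 and -0.59, so that C1qb lay just past a 1.5-fold difference. All 10 genes were lower by 1.5-fold or more, where 8.81% of the genes tested were. The count was 7 when the WT minimum of UMIs was asked of both libraries, as it was with all barcodes of at least 1000 UMIs, with Mrc1, C1qb and C1qc under the fold in both. The median log2 ratio of the 10 genes was -2.25, and that of all genes tested was -0.06. Since the genes were chosen from this contrast, nothing further is read from the count.

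The states of the macrophages also differed between the libraries. Resident-like cells made up 14.4% (12.9 to 16.1) of WT macrophages (284 cells) and 4.15% (3.37 to 5.05) of Siah2-/- macrophages (95 cells), a log2 ratio of -1.80 (-2.12 to -1.47). Cycling cells, the state with the next highest levels, made up 12.6% and 5.29%. The monocyte-like state went the other way and made up 9.51% and 21.5%. The states where the 10 genes were high were thus the smaller ones in the Siah2-/- library. With clusters of integrated cells in place of the gates, in which none of the 10 genes was used, the resident-like cluster held 434 WT and 252 Siah2-/- cells, a log2 ratio of -1.01 of the shares.

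**Figure D2:**
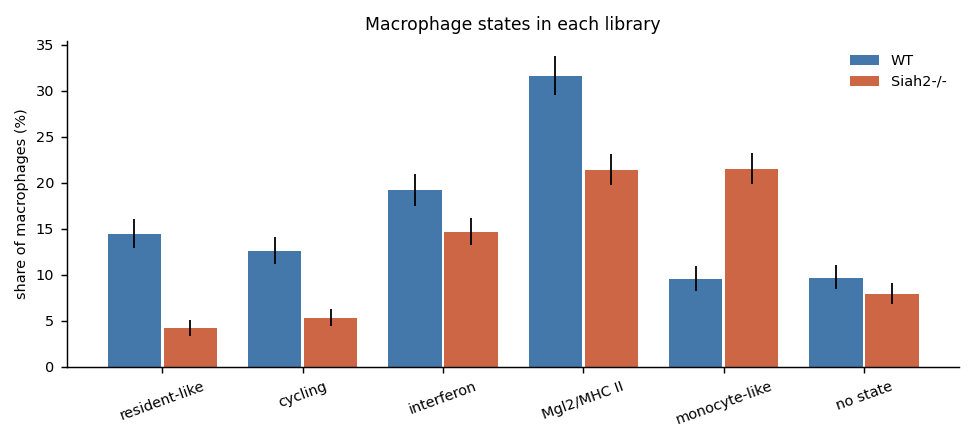
Share of macrophages in each state described (%), for the WT (blue, 1966 cells) and Siah2-/- (orange, 2287 cells) libraries. Bars carry exact binomial 95% intervals, and the resident-like bar stands at 14.4% and 4.15%.

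Each macrophage ratio was then split. The makeup part is the log2 ratio that the changed shares of the states give when the level in each state is held at the mean of both libraries, with shares taken over UMIs. The within-state part is the log2 ratio that the changed levels give when the makeup is held at its mean. The parts need not add up to the whole, and both carry intervals for counting error. Both parts were below 0 for all 10 genes.

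In the restricted group the within-state part was the larger. For Fcrls the makeup part was -1.0 (-1.13 to -0.87) and the within-state part -3.75 (-3.98 to -3.51). Cbr2 gave -1.09 (-1.25 to -0.93) and -3.02 (-3.44 to -2.60). Gas6 gave -0.97 and -2.60, Npl -1.01 and -2.20, and Folr2, with the strongest makeup part, -1.13 and -1.79. The makeup part was thus 21.1% of the sum of both parts for Fcrls and 38.7% for Folr2. Mrc1 was the only gene of the 10 in which makeup gave the larger part, with -0.45 (-0.51 to -0.39) against -0.28 (-0.39 to -0.17), or 61.5% of the sum. That order did not hold with clusters (-0.30 and -0.39), with thinned cells (-0.40 and -0.41) or without macrophages that held T or NK marker UMIs (-0.50 for both). Hpgds gave -0.54 and -1.15.

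The C1q genes had small parts of both kinds. The makeup part was -0.29 for C1qa, -0.23 for C1qb and -0.28 for C1qc, and the within-state part was -0.47, -0.36 and -0.39. Over the 10 genes the median makeup part was -0.76 and the median within-state part -1.47, where the medians of all genes tested were -0.03 for each. The within-state part reached 1.5-fold in 6 of the 10 genes (5.45% of the genes tested), and the makeup part in 5 of the 10 (1.61%). With clusters in place of gates the median makeup part was -0.41 and the median within-state part -1.61, so that the makeup part was smaller there.

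**Figure D3:**
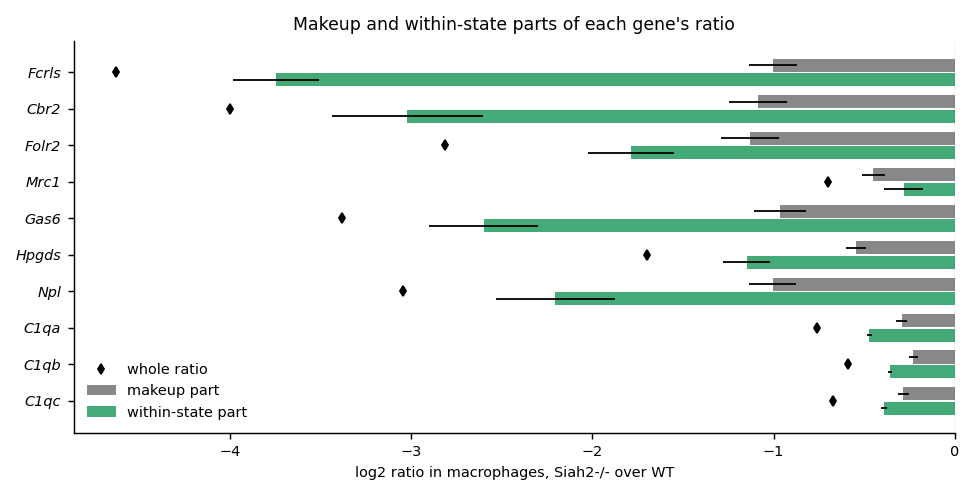
Makeup part (grey) and within-state part (green) of the log2 ratio of each gene in macrophages, Siah2-/- over WT, with 95% intervals for counting error, and the whole ratio (black diamonds). The green bar is longer than the grey bar for 9 genes, and the grey bar is longer for Mrc1.

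Inside the resident-like state, where the contrast of makeup is removed as far as the gate allows, all 10 genes were again lower in the Siah2-/- library. Fcrls had 2334 UMIs or 669 CPM (643 to 697) in 284 WT cells and 51 UMIs or 40.5 CPM (30.2 to 53.3) in 95 Siah2-/- cells, a log2 ratio of -4.05 (-4.48 to -3.65). Gas6 had 226 CPM (211 to 242) and 27.0 CPM (18.7 to 37.7), a log2 ratio of -3.07. Npl had 132 CPM and 20.6 CPM, a log2 ratio of -2.68. These Siah2-/- levels rest on 26 to 51 UMIs. Cbr2 had 171 CPM (157 to 185) and 19.9 CPM (12.9 to 29.3), but 1 cell held 56.0% of the 25 Siah2-/- UMIs of Cbr2 in this state. Folr2 had 242 CPM (226 to 259) and 62.7 CPM (49.7 to 78.2), a log2 ratio of -1.95.

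The other 5 genes differed less in the resident-like state. Hpgds had 198 and 81.0 CPM, a log2 ratio of -1.29 (-1.60 to -0.99), and Mrc1 had 294 and 161 CPM, a log2 ratio of -0.87 (-1.09 to -0.65). The C1q genes had log2 ratios of -0.49 (C1qa), -0.48 (C1qc) and -0.30 (C1qb). The count of genes lower by 1.5-fold or more was therefore 7 of 10 (9.83% of the genes tested in this state), with C1q outside. The median over the 10 genes was -1.62, and over all genes tested in the state -0.07. The resident-like cluster of the integrated cells, of whose cells 35.7% were gated resident-like, gave log2 ratios of -4.11 for Fcrls, -3.71 for Cbr2, -2.47 for Gas6 (outside the interval by gate, -3.61 to -2.57) and -0.71 for Mrc1. Without macrophages that held T or NK marker UMIs, the gated log2 ratio was -1.78 for Cbr2, -2.43 for Gas6, -2.05 for Npl and -1.96 for Hpgds, each more than 1.5-fold from its value above, so that Hpgds then differed more than Cbr2.

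Other states gave other patterns, as the plot of ratios inside each state shows. In interferon cells all 10 genes were lower, with intervals that left out 0, and 8 of the 10 by 1.5-fold or more (5.31% of genes). By gate, Fcrls had 77.8 CPM in WT and 6.94 CPM in Siah2-/- interferon cells, a log2 ratio of -3.49, Folr2 had 22.4 and 3.02 CPM, and C1qa 5475 and 3217 CPM. With clusters in place of gates this held less well. In the interferon cluster Fcrls had 9.43 and 3.54 CPM, a log2 ratio of -1.42 (-3.04 to -0.02), and Folr2 had 2.10 and 3.54 CPM. The log2 ratios of Folr2 (0.75, -1.32 to 3.02) and Mrc1 (0.12, -0.44 to 0.68) lay above 0 there, and the intervals of Gas6 and Npl held 0. In cycling cells all 10 were lower and 6 by 1.5-fold or more (5.33%), and C1q differed little, with C1qb at 6932 and 6431 CPM. After thinning to 2000 UMIs a cell, C1qa (-0.68) and C1qc (-0.64) passed the fold in cycling cells too, and the log2 ratio of Hpgds was -1.87 in place of -0.75. That of Fcrls there, -3.73, was -4.78 after thinning and -5.40 without macrophages that held T or NK marker UMIs. The 4 of 8 genes tested in the Mgl2 state that were lower by 1.5-fold or more (3.42%) were Fcrls, Gas6, Hpgds and Npl. Without macrophages that held T or NK marker UMIs, Npl was under that fold (-0.27) and the interval of Gas6 held 0 (-2.43 to 0.18). Hpgds, the gene with the most UMIs of the 4 in that state, had 62.9 and 29.4 CPM, a log2 ratio of -1.10 (-1.37 to -0.83).

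Mrc1 did not follow the others. In Mgl2 cells it was higher in the Siah2-/- library, with 47.0 CPM in WT and 57.7 CPM in Siah2-/-, a log2 ratio of 0.29 (0.06 to 0.53). In monocyte-like cells it had 13.1 and 17.1 CPM, with an interval of the ratio that held 0, while its log2 ratio was 0.89 (0.12 to 1.71) with the WT minimum of UMIs in both libraries and 1.27 (0.48 to 2.13) with all barcodes of at least 1000 UMIs. By the gates the mannose receptor was lower in resident-like, cycling and interferon cells. With clusters it was lower in the resident-like (-0.71) and cycling cells (-0.54), while the intervals of Mgl2 (0.11, -0.09 to 0.30), interferon and monocyte-like cells (-0.02) held 0. Folr2 had few UMIs in Mgl2 cells (10 and 15), and the interval of its ratio held 0.

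In monocyte-like cells C1q differed more than in any other state described. C1qa had 1935 and 615 CPM, C1qb 2638 and 937 CPM and C1qc 1306 and 482 CPM, with log2 ratios of -1.65, -1.49 and -1.44. The size of the difference moved with the processing. Over the alternatives the log2 ratio ran from -2.14 to -1.04 for C1qa, from -2.14 to -0.89 for C1qb and from -2.0 to -0.80 for C1qc, nearest to 0 with all barcodes of at least 1000 UMIs. The clusters gave -1.74, -2.14 and -2.0. Of the 4 genes tested there, 3 were lower by 1.5-fold or more (7.12%), all of them C1q. Fcrls had 12 UMIs in WT monocyte-like cells and none in Siah2-/-, and 1 cell held 50% of the 12.

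**Figure D4:**
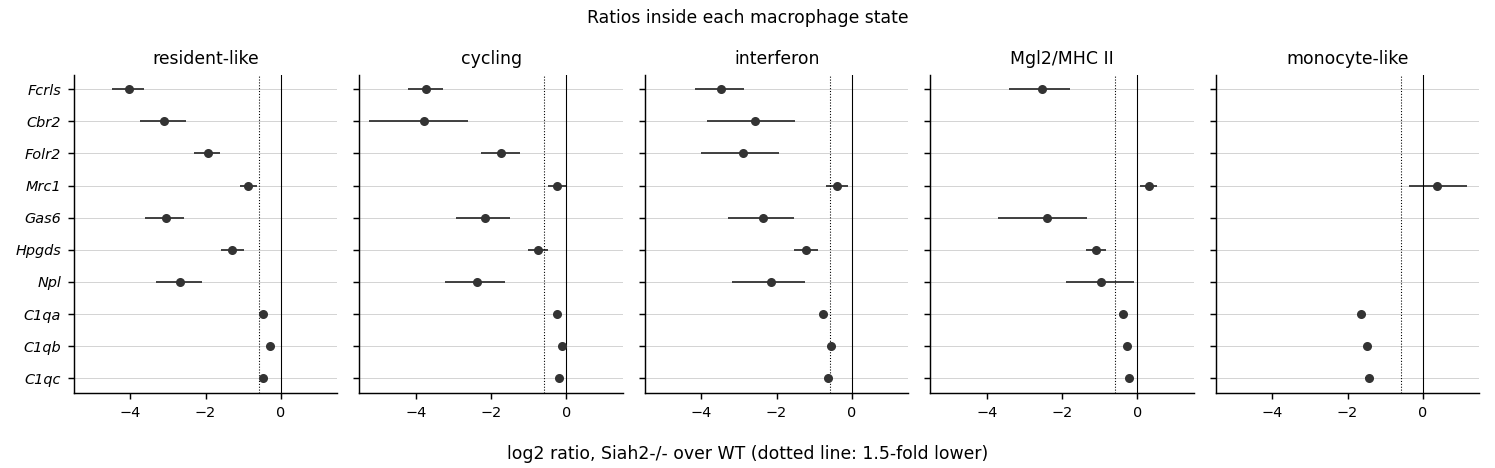
Log2 ratio, Siah2-/- over WT, of each gene inside 5 macrophage states with exact 95% counting intervals, for genes with at least 50 UMIs over both libraries in that state. The solid line marks 0 and the dotted line a 1.5-fold lower level. Fcrls lies between -4.05 and -2.55 in the 4 states where it is drawn, and Mrc1 lies on both sides of 0.

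A state holds cells with stronger and weaker marker scores, and these differed. The median resident-like score was 0.90 in the 284 WT cells and 0.59 in the 95 Siah2-/- cells. Of the markers themselves, Ccl8 was higher in Siah2-/- resident-like cells (1468 and 2023 CPM), Pf4 was close (1514 and 1417 CPM), and Sepp1 (1834 and 941 CPM), Stab1 (358 and 229 CPM), F13a1 (204 and 115 CPM) and Ltc4s (97.2 and 26.2 CPM) were lower. Lyve1 and Cd163, which define resident macrophages in many tissues, were near 0, with 14 and 41 UMIs in WT and 0 and 4 in Siah2-/-. Resident-like cells were therefore compared again within 3 ranges of the score.

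In each range the restricted genes were lower in the Siah2-/- library. At scores of 0.25 to 0.5, however, the intervals of Cbr2 (-7.81 to 0.75) and Npl (-5.12 to 0.40) held 0. Npl had 9 UMIs in WT and 2 in Siah2-/- there. Fcrls had 220 and 17.9 CPM at scores of 0.25 to 0.5 (57 and 41 cells), 425 and 38 CPM at 0.5 to 1 (102 and 36 cells), and 1037 and 89.7 CPM at 1 or more (125 and 18 cells). Its log2 ratios were -3.62, -3.48 and -3.53, so that they hardly moved with the score while the levels were higher at higher scores in both libraries. The ratios of Folr2 were -1.84, -0.95 and -1.19 and those of Gas6 -2.56, -3.11 and -2.09. Cbr2 had 1 Siah2-/- UMI in the lowest range and 62.4 CPM in the highest, against 340 CPM in WT. The 62.4 CPM are 16 UMIs, most of them from the 1 cell that held 56.0% of the 25 UMIs of the state. For Mrc1 the middle range gave 186 and 198 CPM, a log2 ratio of 0.09 (-0.26 to 0.44), between -0.72 below it and -1.05 above it. At the highest scores C1qb had 8119 and 7826 CPM, and the interval of its ratio (-0.12 to 0.01) held 0. The highest range rests on 18 Siah2-/- cells, and the lower ranges give the same direction for Fcrls, Gas6, Folr2 and Hpgds without it.

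**Figure D5:**
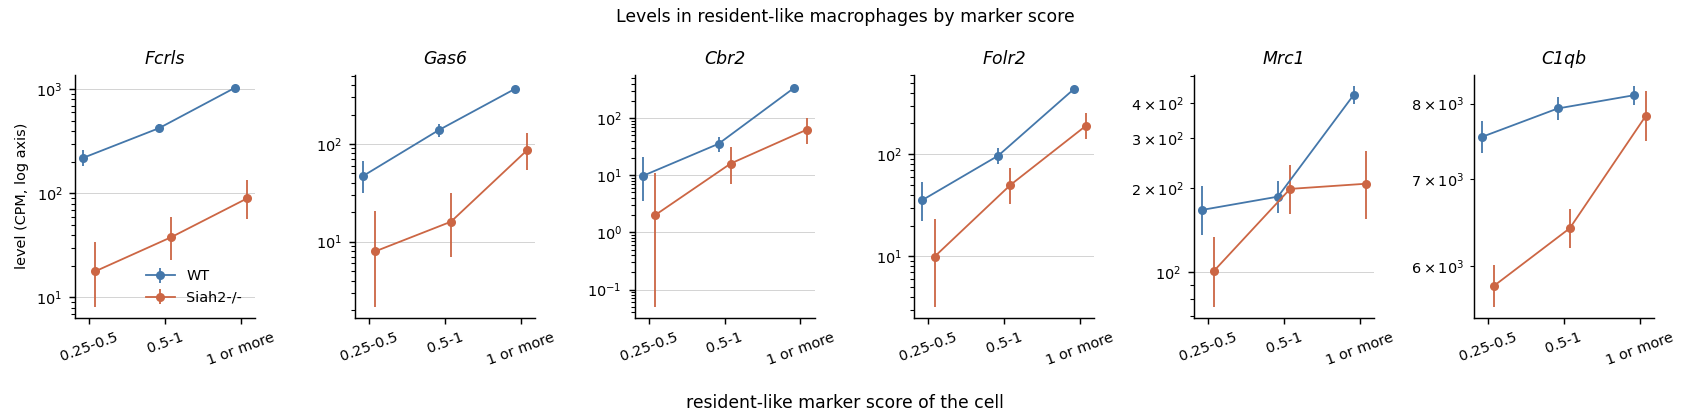
Level (CPM, log axis, a separate scale per panel) of 6 genes in resident-like macrophages grouped by their resident-like marker score (3 ranges on the x axis), WT in blue and Siah2-/- in orange, with 95% Poisson intervals. Fcrls runs from 220 to 1037 CPM in WT and from 17.9 to 89.7 CPM in Siah2-/-, while the points of Mrc1 and C1qb come close in 1 range each.

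The same differences appeared as shares of cells. Each cell was thinned to 2000 UMIs, since depth differed, and no cell was lost by this. Fcrls was then found in 53.9% (47.9 to 59.8) of WT and 5.26% (1.73 to 11.9) of Siah2-/- resident-like cells, and in 0.517% and 0.0693% of T cells. Unthinned, the shares were 79.6% and 21.1% in resident-like cells, whose median depth was 11506 and 12481 UMIs, and 2.24% and 0.277% in T cells, with medians of 9260 and 7124.5 UMIs. Mrc1 was found in 41.2% and 23.2% of thinned resident-like cells, and C1qb in 97.9% and 92.6%. By their median the Siah2-/- resident-like cells were not shallower than the WT cells. The cause of the different shares was not tested.

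Cells that held several of the 7 genes other than C1q at once were mostly resident-like cells of the WT library. After thinning, 26.8% of WT and 1.05% of Siah2-/- resident-like cells held 4 or more of the 7, and 18.7% and 55.8% held none. In all macrophages 4.83% and 0.0437% held 4 or more. In cycling macrophages 26.7% and 1.65% held 2 or more, and T cells held a mean of 0.0207 and 0.0125 of the 7 genes. Without thinning, the median number of the 7 genes per resident-like cell was 5 in WT and 2 in Siah2-/-.

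The chains of C1q are made in equal numbers in the protein, and the ratios of their UMIs were followed too. In macrophages there were 0.982 UMIs of C1qa per UMI of C1qb in WT (0.975 to 0.990) and 0.873 in Siah2-/- (0.864 to 0.881). The ratio was lower in Siah2-/- in resident-like (1.08 and 0.946), Mgl2 (0.951 and 0.894), interferon (0.975 and 0.849), monocyte-like (0.734 and 0.657) and cycling cells (0.995 and 0.904), with intervals that did not overlap. In the T cells the ratios were 0.914 (0.799 to 1.04) and 0.828 (0.757 to 0.906), intervals that held those of the free RNA of barcodes with at most 100 UMIs, which were 0.947 and 0.831. The free RNA of the libraries thus differed in this ratio in the same direction as the macrophages, and its part in the ratio was not tested. UMIs of C1qc per UMI of C1qb were lower in Siah2-/- in resident-like (0.751 and 0.662), cycling (0.704 and 0.664) and interferon cells (0.638 and 0.613). They were higher in Mgl2 (0.580 and 0.604) and monocyte-like cells (0.495 and 0.514). The intervals overlapped in interferon and monocyte-like cells only.

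Across 26 points, the states and classes of each library with at least 50 cells, the levels of the genes were compared by the correlation of log2(CPM + 10). The points of a library share its free RNA and depth. Fcrls and Gas6 had a Pearson r of 0.97, Gas6 with Cbr2 and with Npl 0.96, and Folr2 with Gas6 0.95. C1qa, C1qb and C1qc had an r of 1.00 with each other, and Mrc1 went with them (0.92 to 0.93) as closely as with Hpgds (0.93) and more closely than with Cbr2 (0.67). Hpgds had an r of 0.90 to 0.91 with the C1q genes, so that the pair of Mrc1 and Hpgds did not stand apart from C1q by this measure. The 10 other genes most like the mean of all 10 were Lilra5 (0.96), Cx3cr1, Ntpcr, Ang, Ms4a7, Nxpe5, Ccl7, Ptgs1, Tmem86a and Stab1 (0.95), the last being one of the state markers. Cx3cr1, the fractalkine receptor, had 213 CPM in WT and 81.4 CPM in Siah2-/- macrophages. Ptgs1, the constitutive cyclooxygenase whose product feeds Hpgds, had 44 and 13.3 CPM.

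Genes of the same pathways were followed from lists chosen with earlier results known, leaving out the 10 genes and the state markers. Counts refer to macrophages and to genes with at least 50 UMIs there, of which 8.81% were lower and 8.4% higher by 1.5-fold or more. Nothing is called particular to a list. Of 20 other resident genes, 12 were lower by 1.5-fold or more and 3 higher, with a median log2 ratio of -0.89. Slco2b1 had 4.98 CPM in WT and 0.22 CPM in Siah2-/-, Igf1, a growth factor, had 13.4 and 0.95 CPM, and Fcna, a ficolin that recognises sugars on microbes, had 5.74 and 0.69 CPM. Ccl24, a chemokine for eosinophils, had 3.55 and 18.7 CPM. Cd9, named after its values were seen, was also higher (82.9 and 159 CPM). Inside the resident-like state Igf1 had 59.9 and 3.97 CPM, a log2 ratio of -3.92 (-5.55 to -2.67), where Fcrls had -4.05.

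Around C1q, complement genes lay on both sides. Of 17 genes, 2 were lower and 4 higher by 1.5-fold or more, and the median log2 ratio was 0.02. C3, the hub of all complement pathways, had 61.3 CPM in WT and 122 CPM in Siah2-/-, and Cfb, factor B of the alternative pathway, 80.7 and 147 CPM. C1ra, the protease that C1q activates, had 10.5 and 16.1 CPM. C4b, the next substrate of the classical pathway, had 14 and 7.53 CPM. The others past the fold, named after their values were seen, were C2 (1.75 and 1.08 CPM) and Itgb2, a chain of complement receptors (297 and 456 CPM). C2 had 39 and 25 UMIs, and the interval of its log2 ratio held 0 (-1.48 to 0.07). C1q was thus lower in the same libraries in which C3 and Cfb were higher.

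Around Gas6, 1 of 14 genes for the binding and uptake of dying cells was lower and 2 were higher by 1.5-fold or more, shares near those of all genes tested (8.81% and 8.4%), with a median of -0.20. The 1 was Axl and the 2 were Lgals3 and Cd36. Axl, a receptor of Gas6, had 215 CPM in WT and 122 CPM in Siah2-/-, a log2 ratio of -0.82 (-0.89 to -0.76), against -3.38 for its ligand. Lgals3, a galectin, had 1459 and 2657 CPM, and Cd36, a scavenger receptor, had 2.29 and 5.02 CPM. Lrp1, a receptor for calreticulin, had 83.2 and 124 CPM, under the fold.

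Around Hpgds, 2 of 12 genes of prostaglandin synthesis and response were lower and 2 higher by 1.5-fold or more, with a median of -0.15. Ptgs1 was lower, as given above, and Ptgs2, the inducible cyclooxygenase, had 16.2 and 61.4 CPM, a log2 ratio of 1.92 (1.75 to 2.09). Ptges, which makes prostaglandin E2, had 1.39 and 3.16 CPM, and Pparg, a nuclear receptor for derivatives of prostaglandin D2, had 11.2 and 4.37 CPM. In resident-like cells Ptgs1 had 98.4 and 30.2 CPM and Ptgs2 had 5.16 and 27.8 CPM.

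Around Folr2, 6 of 11 genes of folate uptake and use were lower and 1 higher by 1.5-fold or more, with a median of -0.62. Those named by size were Shmt1 (6.46 and 2.60 CPM), Tyms (40.8 and 17.6 CPM) and Slc46a1, the proton-coupled folate transporter (4.40 and 2.64 CPM). Ggh, which trims folate tails, was the 1 that was higher, at 80.8 and 121 CPM, and was named after its value was seen. Tyms serves DNA synthesis, and the share of cycling macrophages, 12.6% and 5.29%, moved with it. Its part in these values was not tested. Around Npl, 3 of 13 genes of sialic acid handling and binding were lower by 1.5-fold or more and none higher, with a median of -0.37. These were the receptor Siglece (55.1 and 23.6 CPM), St3gal6, a sialyltransferase (11.8 and 6.19 CPM), and Cd33 (73.0 and 46.1 CPM). Siglec1, the sialoadhesin of resident macrophages, had 24.9 and 17 CPM.

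Beside Mrc1 and Fcrls, the list of other lectin and scavenger receptors held no gene lower by 1.5-fold or more among 14, and 4 that were higher, with a median of -0.06. These 4 were Clec4d (33.8 and 131 CPM) and Clec4e (43.9 and 120 CPM), which sense glycolipids of microbes and dying cells, Cd36, and Cd209a (6.33 and 13.3 CPM), whose family has close copies between which reads may be shared. In the resident-like state Clec4e had 5.74 and 54.8 CPM.

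Several measures moved with the libraries beside the 10 genes. Free RNA carried the genes too, with Fcrls at 54.6 CPM in WT and 8.22 CPM in Siah2-/- barcodes of at most 100 UMIs. In the Siah2-/- library all restricted genes had a higher level in free RNA than in macrophages. Folr2 had 13.8 against 7.79 CPM, Gas6 6.98 against 4.89, Npl 5.74 against 4.02 and Cbr2 4.19 against 2.38. In WT free RNA lay below macrophages, with 27.6 against 54.7 CPM for Folr2. The log2 ratios in free RNA were -1.0 for Folr2, -1.22 for Gas6 and -2.73 for Fcrls. By 9 T cell genes, free RNA made up 2.98% and 4.66% of macrophage UMIs. Subtracting it left the log2 ratios of all 10 genes below 0 in macrophages, and 9 of the 10 past 1.5-fold. The mixed barcodes, with a median of 16216.5 and 15734 UMIs, held Fcrls at 148 and 7.89 CPM. No doublet caller was run, and macrophages with any UMI of a T or NK marker were left out in 1 alternative, which left 1436 and 1043 macrophages and gave a median log2 ratio of the 10 genes of -2.62. Fibroblasts made up 11.4% of WT and 1.76% of Siah2-/- cells, and the part of the makeup of the whole suspension in these values was not tested.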

How the data were processed

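The 2 libraries were prepared with 10x Genomics 3′ v2 reagents. Per the labels and the study's methods, the authors used bcl2fastq and Cell Ranger on mm10/GRCm38 (Cell Ranger version not given in the sources used here), dropped 2% of the cells at each end of the distribution of detected genes, dropped cells above 10% mitochondrial transcripts, and deposited raw UMI counts, unfiltered count matrices and natural log values of 1 plus UMIs per 10000. The natural log table deposited by the authors only set which cells were analysed. Every column belongs to a sample of this series (0 left out).

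The members and gene lists were chosen with earlier results of these data known, and the gates and thresholds with the data in view. Classes needed 4 of 6 macrophage, 3 of 6 T cell, 3 of 5 NK cell, 4 of 5 fibroblast, 3 of 7 conventional DC or 4 of 6 mature DC markers. A macrophage took the state with the highest mean z-score of its markers, if at least 0.25. UMIs were summed per group and library and given as CPM, with exact Poisson intervals, exact conditional binomial intervals of ratios and Clopper-Pearson intervals of shares (95%). Intervals of the makeup and within-state parts are delta-method intervals. With 1 library per genotype no test was possible and no p-value was computed. A count of 0 allows 3 UMIs. Genes needed 50 UMIs over both libraries, and a gene was counted as lower at 1.5-fold. All 10 genes passed this filter in macrophages. The genes named from other lists are the up to 4 with the largest absolute log2 ratio in macrophages whose interval left out 0. Likeness is the Pearson correlation with the mean log2(CPM + 10) of the 10 genes, among genes with 200 UMIs. Alternatives used Seurat 5.3.0 clusters (R 4.3.3, integration on 20 dimensions, resolution 0.8, the 10 genes left out of the variable genes), other barcodes, scalings and gates. Other steps ran in Python 3.11.15 with numpy 2.4.6 and scipy 1.17.1, and were tested on simulated data. Positions are from GENCODE on GRCm38. 1 further macrophage state, which enters the makeup and within-state parts and the totals, and a few genes of the lists are not reported here.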

Additional observations from a re-analysis of the deposited data

Results flagged for a closer look

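The Mrc1 ratio pointed in different directions in different states of the same contrast. Its log2 ratio was 0.29 in Mgl2 macrophages and -0.87 in resident-like, -0.40 in interferon and -0.26 in cycling macrophages, and the difference between the states was not tested, since each state of a library comes from 1 sample. With clusters in place of gates the ratio was 0.11 in Mgl2 (-0.09 to 0.30) and 0.12 in interferon cells (-0.44 to 0.68), so that both intervals held 0, and -0.71 in resident-like and -0.54 in cycling cells.

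The 10 genes were also counted in barcodes outside the cells analysed. Among barcodes with at least 1000 UMIs that were not among the analysed cells, the same gate found 1236 WT and 468 Siah2-/- macrophages. Fcrls had 266 UMIs there in WT and none in Siah2-/-, at least 25.8-fold lower against a limit of 3 UMIs. The log2 ratios of Cbr2 (-3.82), Folr2 (-2.29), Gas6 (-2.25), Npl (-1.97) and Hpgds (-1.71) had intervals below 0, and so had those of C1qa (-0.89), C1qb (-0.85) and C1qc (-0.85). For Mrc1 the ratio was 0.17 (-0.23 to 0.55), with 229 and 75 UMIs. These barcodes come from the same libraries and are no replicate of them.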

How the results depend on the processing

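No paired analysis was possible because each genotype has 1 library, and for the same reason no replicate could be left out. Of the 14 alternatives, 3 were chosen after seeing the data (a lowest state score of 0.5, mixed barcodes counted as macrophages with no state, cells near the cut left out). Over all macrophages, in resident-like cells and in both parts, no value changed direction. In the interferon state, clusters turned the log2 ratios of Folr2 (to 0.75) and Mrc1 (to 0.12), both with intervals that held 0. The genes lower by 1.5-fold in macrophages numbered 7 to 10, with 7 for the WT minimum of 6670 UMIs in both libraries and for all barcodes with at least 1000 UMIs, and the genes lower in resident-like macrophages 7 to 8. The median log2 ratio of the 10 genes, -2.25, became -2.06 with clusters, -2.07 with barcodes of at least 1000 UMIs, -2.56 with the mean of CPM per cell, -2.62 without cells that held T or NK marker UMIs, -2.59 with cells thinned to 2000 UMIs and -2.02 with mixed barcodes. The log2 ratio of the resident-like share, -1.80, became -1.01 with clusters, -2.47 without T or NK marker UMIs, -1.42 after thinning and -2.29 with a lowest score of 0.5. The median makeup part, -0.76, became -0.41 with clusters, -0.64 with the WT minimum, -0.63 with barcodes of at least 1000 UMIs, -0.90 with the mean per cell, -0.91 without T or NK marker UMIs, -0.65 after thinning and -0.53 with mixed barcodes. The median within-state part, -1.47, became -1.89 after thinning. No ratio could be had for Cbr2 in resident-like cells after thinning, for Cbr2 with clusters and Cbr2 and Gas6 after thinning in interferon cells (no Siah2-/- UMI), or for cycling cells without the cycling list. The cause of these moves was not tested. Of the values of single genes, 279 moved by more than their counting interval, 713 did not, and the 2 named turned. The 713 include Mrc1 in monocyte-like cells, whose log2 ratio of 0.38 was -0.02 with clusters, -0.14 without T or NK marker UMIs and -0.10 after thinning, each with an interval that held 0. Depth limits Cbr2, Npl and Gas6 most, with 55, 93 and 113 UMIs in Siah2-/- macrophages.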
